A study of Arabidopsis thaliana with 75 samples.

Results

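The comparison described here is wild type leaves of Arabidopsis thaliana at 12h after wounding against wild type leaves at 6h after wounding. Its members were chosen by their titles and number 3 libraries at 12h and 3 at 6h, of 75 libraries in the series. The protocol in the labels is the same for every group, a cut with a steel blade in the 8th leaf of 4-week-old plants, and every group, 0h included, has wound as its labelled treatment. Besides the 12h and 6h groups, 5 groups of 3 libraries each were used to set the step beside other contrasts. These were leaves labelled gpat4 gpat8 (GPAT4 and GPAT8 are acyltransferases of cutin synthesis) at 12h and 0h, wild type leaves at 0h, and leaves labelled rbohE (an NADPH oxidase) at 1D and 0h. Messenger RNA was sequenced from stranded libraries, and the level of a gene is given as CPM, its count scaled to a common library size. The labels give no hour of collection and do not say whether replicates came from separate plants, so p-values measure spread between libraries only. That spread was estimated for each gene over all 75 libraries, so an SE can differ from the spread of the 12h and 6h libraries themselves. No leaves kept without a wound to 6h or 12h were analysed here, so within the comparison the hour of the day and the age of the wound cannot be told apart.

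As background, a cut leaf makes jasmonate within minutes, which releases a defence and growth-restraint programme that fades over hours, and later seals the wound with suberin, cutin and lignin. The plant circadian clock is a loop of repressors: CCA1 and LHY are made around dawn and hold down evening genes such as GI, TOC1 and LUX, and TOC1 in turn holds down CCA1 and LHY. Clock genes and their targets change several-fold over a day in leaves that are not injured, so a step between collections can carry both programmes.

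Total counts of the 6 libraries lay between 51856012 and 67376782, within the range of 46045188 to 67376782 over all 75 libraries, and between 22939 and 23423 genes had a count. Log-scaled values correlated at 0.985 to 0.987 between libraries of a group and at 0.963 to 0.970 between 12h and 6h libraries. Among markers of leaf cell types, none of the 4 guard cell and none of the 4 phloem companion cell genes tested was called, 2 of the 4 mesophyll genes and 1 of the 2 trichome genes were higher at 12h, and all 5 xylem genes were higher at 12h, with values given beside the lignin genes below. No seed storage gene passed the filter on low counts. In the libraries labelled gpat4 gpat8, GPAT8 was not lower than in wild type at 0h (log2 difference 0.86), so the label was not borne out by that gene and they are called by their label throughout.

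Between 12h and 6h, 2508 of 23475 genes tested were called, 10.7% of them, at an adjusted p under 0.05 and an absolute log2 fold change of at least 1 (edgeR's quasi-likelihood test with Benjamini-Hochberg adjustment). Of these, 1510 were higher at 12h (6.43% of genes tested) and 998 were lower at 12h (4.25%). The median log2 fold change over all genes tested was -0.002. An absolute log2 fold change of at least 3 was found for 356 called genes, 242 of them higher at 12h. Without the fold minimum, 9268 genes passed the adjusted p threshold. Numbers in brackets after a gene are its log2 fold change at 12h over 6h and the SE, and a gene is said to have risen or fallen only where it was called. The SE is the absolute log2 fold change divided by the square root of the quasi-likelihood F statistic, so it is approximate.

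The dawn repressors of the clock were far higher at 12h than at 6h. LHY, a dawn-phased Myb repressor, stood at 129, 134 and 132 CPM in the 12h libraries, against 1.69, 1.72 and 1.18 CPM in the 6h libraries. Its log2 fold change was 6.42 ± 0.38 (SE, edgeR adjusted p 5.94e-20). CCA1, its close relative, had 67.8, 71.9 and 74.2 CPM at 12h and 2.88, 3.73 and 3.47 CPM at 6h, a change of 4.41 ± 0.27. RVE8, a Myb activator of evening genes, had 70.4, 72.5 and 71.2 CPM at 12h and 3.23, 4.24 and 3.08 CPM at 6h (4.34 ± 0.17, edgeR adjusted p 1.38e-27). For all 3 genes every 12h library lay above every 6h library. The related Myb genes RVE1 (2.11 ± 0.35), RVE2 (1.64 ± 0.25) and RVE4 (1.27 ± 0.08) and the coactivator LNK2 (1.73 ± 0.11) were also higher at 12h, also without overlap.

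Of the remaining morning genes, PRR7 and LNK4 moved the other way. PRR7, a repressor of CCA1 and LHY that follows them during the day, fell to 17.9, 17.0 and 19.3 CPM at 12h, against 68.0, 67.5 and 67.6 CPM at 6h (-1.91 ± 0.10, edgeR adjusted p 2.03e-21). LNK4 fell as well (-1.54 ± 0.15). PRR9 had 3.58, 4.02 and 4.12 CPM at 12h and 5.10, 6.29 and 4.43 CPM at 6h and was not called (-0.43 ± 0.24), and neither were LNK1, LNK3, RVE7, CDF1, CDF2 and CDF3. Of the 16 morning genes, 7 were thus higher, 2 lower and 7 not called, with a median log2 fold change of 0.40. At the adjusted p threshold without the fold minimum, 8 were higher and 6 lower.

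Of 14 evening genes, 9 were lower at 12h and none was higher, with a median of -1.28. GRP7, a clock-driven RNA-binding protein, had 204, 212 and 222 CPM in the 12h libraries, against 1579, 1381 and 1620.0 CPM in the 6h libraries (-2.84 ± 0.17, edgeR adjusted p 5.94e-20). GI, a scaffold that stabilises the evening photoreceptor ZTL, had 33.5, 31.9 and 30.2 CPM at 12h and 148, 143 and 158 CPM at 6h (-2.23 ± 0.15). FKF1, the blue-light F-box protein of the photoperiod pathway, had 9.50, 8.98 and 8.16 CPM at 12h and 52.8, 53.8 and 57.3 CPM at 6h (-2.62 ± 0.17). In none of these 3 genes did a 12h library reach the lowest 6h library. COR27 (-2.6 ± 0.18), JMJD5 (-2.2 ± 0.15), LUX (-1.62 ± 0.13), PRR3 (-1.39 ± 0.13), GRP8 (-1.17 ± 0.13) and BOA (-1.06 ± 0.21) fell with them, BOA falling short of the fold minimum without the first 6h library (-0.91). TOC1 had 73.1, 74.7 and 74.2 CPM at 12h and 107, 103 and 116 CPM at 6h, without overlap but below the fold minimum (-0.55 ± 0.13), and ELF4, PRR5, ELF3 and TCP21 were not called either.

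**Figure D1:**
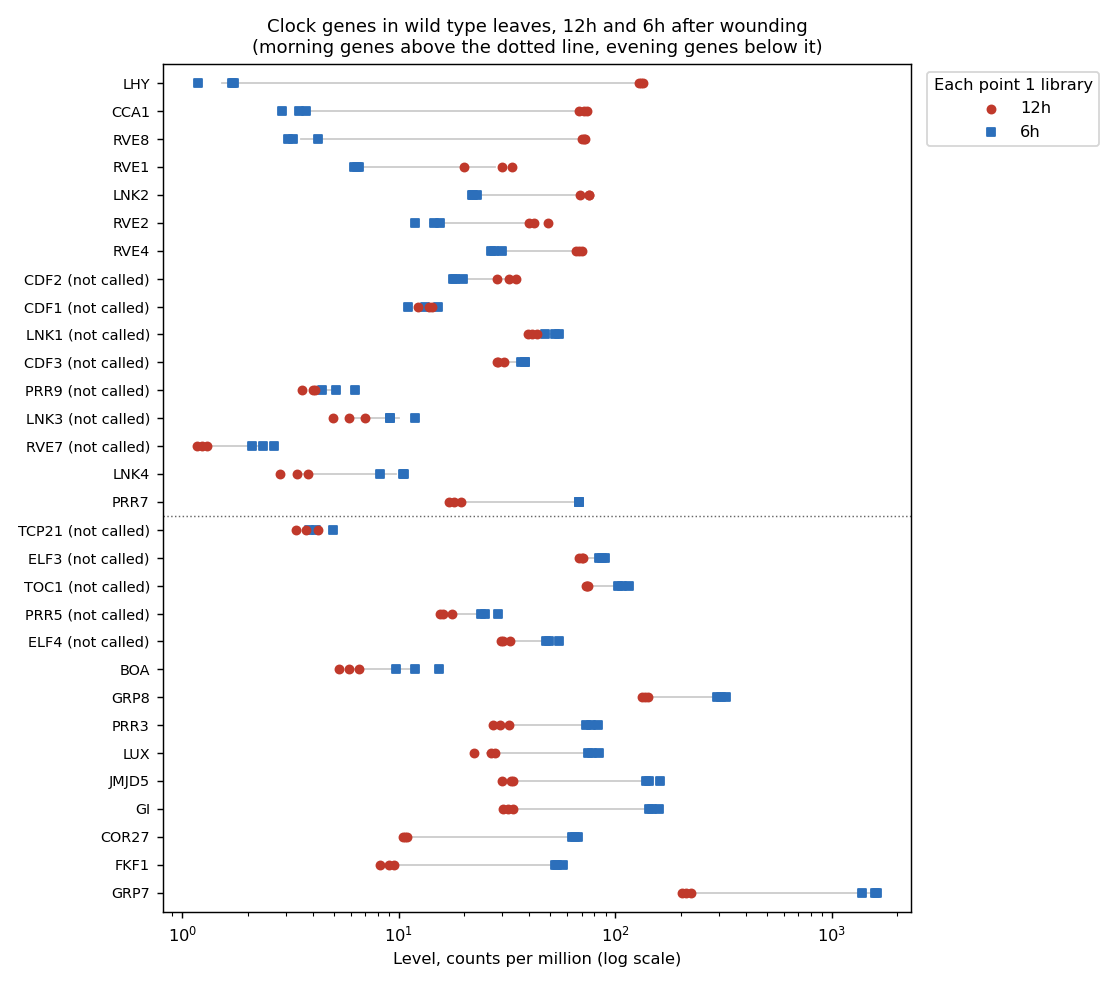
Level of each of the 30 clock genes tested in the 3 wild type libraries at 12h (red circles) and the 3 at 6h (blue squares), in CPM on a log scale, with a grey line between the means. LHY, CCA1 and RVE8 lie far to the right at 12h, and the evening genes from BOA to GRP7 lie to the left at 12h with no overlap.

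The upstream sequences of these genes differ in the clock motifs they hold, and 5 are shown because they belong to the evening genes GRP7, FKF1 and LUX, which fell, and to the dawn pair that rose. Each runs from 250 bases before to 50 bases after the gene start in RefSeq assembly TAIR10.1, 5′ to 3′ on the gene's strand. Capitals mark the evening element (AAAATATCT on either strand), the CCA1-binding site (AAAAATCT on either strand) and the G-box (CACGTG, its own reverse complement).
GRP7 (chr2:9266508-9266807, minus strand): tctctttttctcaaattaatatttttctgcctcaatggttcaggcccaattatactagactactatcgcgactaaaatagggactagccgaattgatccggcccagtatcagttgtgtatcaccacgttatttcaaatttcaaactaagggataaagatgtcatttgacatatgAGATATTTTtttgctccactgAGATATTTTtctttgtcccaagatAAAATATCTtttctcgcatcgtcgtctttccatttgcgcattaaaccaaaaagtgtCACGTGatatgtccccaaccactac
FKF1 (chr1:25508389-25508688, plus strand): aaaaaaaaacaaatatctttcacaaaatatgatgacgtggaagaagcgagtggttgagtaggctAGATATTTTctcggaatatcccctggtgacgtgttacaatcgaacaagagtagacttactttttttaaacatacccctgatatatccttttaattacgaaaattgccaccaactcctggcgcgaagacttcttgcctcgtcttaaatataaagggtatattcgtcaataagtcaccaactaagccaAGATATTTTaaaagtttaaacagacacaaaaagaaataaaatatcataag
LUX (chr3:17182792-17183091, plus strand): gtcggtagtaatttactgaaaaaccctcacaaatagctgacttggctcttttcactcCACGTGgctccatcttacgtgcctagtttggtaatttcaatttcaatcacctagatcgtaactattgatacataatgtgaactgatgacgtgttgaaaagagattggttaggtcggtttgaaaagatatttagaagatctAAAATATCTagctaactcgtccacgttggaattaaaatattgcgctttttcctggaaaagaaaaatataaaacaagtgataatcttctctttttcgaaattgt
LHY (chr1:37822-38121, minus strand): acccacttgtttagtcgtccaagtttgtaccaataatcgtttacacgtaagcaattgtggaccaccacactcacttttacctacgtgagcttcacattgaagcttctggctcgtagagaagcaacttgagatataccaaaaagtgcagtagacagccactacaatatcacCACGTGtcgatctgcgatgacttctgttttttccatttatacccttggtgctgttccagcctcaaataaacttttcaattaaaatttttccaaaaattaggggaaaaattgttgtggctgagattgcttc
CCA1 (chr2:19245341-19245640, plus strand): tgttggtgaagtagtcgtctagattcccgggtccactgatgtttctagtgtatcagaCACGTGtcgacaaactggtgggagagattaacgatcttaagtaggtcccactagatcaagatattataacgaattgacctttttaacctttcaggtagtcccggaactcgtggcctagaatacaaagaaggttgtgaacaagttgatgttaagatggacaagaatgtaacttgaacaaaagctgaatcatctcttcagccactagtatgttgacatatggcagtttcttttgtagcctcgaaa

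GRP7 holds 3 evening elements and a G-box in this window, FKF1 holds 2 evening elements and LUX holds 1 and a G-box. LHY and CCA1 hold 1 G-box each and no evening element, and the window of GI, not printed, holds neither motif, which says only that these letters are not in it. Over all 23280 windows of tested genes, 2.91% held an evening element and 8.33% a G-box. Of the 14 evening genes, 9 held an evening element and 3 a G-box, and of the 16 morning genes, 2 held an evening element and 11 a G-box. Among all genes called lower at 12h, 65 of 997 windows (6.52%) held the evening element, and among genes called higher, 28 of 1510 (1.85%). None of the printed windows held the CCA1-binding site, which was in 1 of the 14 evening and 1 of the 16 morning genes. It was in 6.72% of windows of genes called lower, 6.49% of those called higher and 7.68% of all windows. A match of letters is a description of the window and does not show that a factor was bound.

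Across the 12 wild type times, LHY was high at more than 1 time. Its mean level was 8.12 CPM at 0h and reached 103 CPM by 1h, then 25.4 CPM by 2h and 3.25 CPM by 4h. It stood at 1.53 CPM in the 6h group, 132 CPM in the 12h group, 13.5 CPM in the 18h group and 3.37 CPM in the 1D group. GRP7, an evening gene, had means of 739 CPM at 0h, 35.7 CPM by 1h, 2419 CPM by 4h, 1526 CPM in the 6h group, 213 CPM in the 12h group and 1897 CPM in the 18h group. LHY was thus high and GRP7 low at both 1h and 12h. Of the 1510 genes called higher, 415 had their highest wild type mean at 12h, and 282 their lowest at 6h. Of the 998 called lower, 170 had their lowest wild type mean at 12h and 98 their highest at 6h. Of all genes tested, 7.41% had their highest mean at 12h, 5.2% their lowest at 6h, 4.89% their lowest at 12h and 5.88% their highest at 6h. The called genes were selected for a difference between these times, so these counts are a description.

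**Figure D2:**
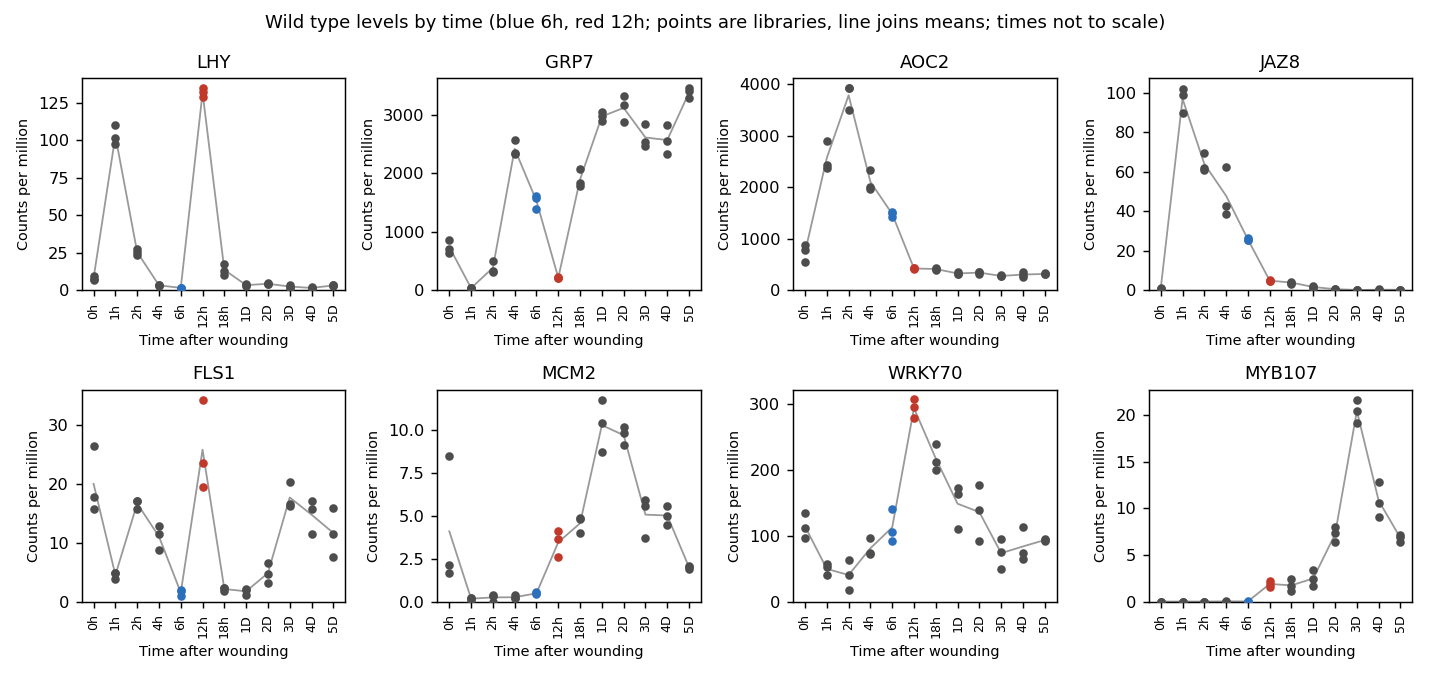
Level of 8 genes in CPM at the 12 wild type times, with a point for each library and a line through the means, 12h in red and 6h in blue. LHY is highest at 12h and 1h and GRP7 is lowest at 1h and 12h, AOC2 and JAZ8 decline from an early peak through 6h and 12h, and MYB107 is first clearly detected at 12h.

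To set the step beside a difference in clock phase, the 0h leaves labelled gpat4 gpat8 were compared with 0h wild type leaves, since the clock genes stood far apart there. LHY averaged 216 CPM in the 0h leaves labelled gpat4 gpat8 and 8.12 CPM in 0h wild type leaves, and GRP7 averaged 13.7 CPM in the 0h leaves labelled gpat4 gpat8 and 739 CPM in 0h wild type leaves. This contrast called 4824 of 23475 genes (20.5%), among them 28 of the 30 clock genes. The genotype label and a sample series marked M in the descriptions differ in it as well, and so do wound genes: JAZ8, a jasmonate-induced repressor, averaged 41.5 CPM in the 0h leaves labelled gpat4 gpat8, against 0.916 CPM in 0h wild type leaves. As a contrast over time after the cut in which fewer clock genes were called, the leaves labelled gpat4 gpat8 at 12h were compared with those at 0h, where LHY averaged 338 CPM at 12h and 216 CPM at 0h. Its 0h side is the same 3 libraries, so it too starts from leaves high in JAZ8, which was lower at 12h there (log2 -2.63). Since those libraries stand on opposite sides of the 2 contrasts, a gene that is high in them tends to be higher in the 0h contrast and lower in the gpat4 gpat8 12h contrast by construction, and opposite calls in the 2 are not separate observations. The gpat4 gpat8 12h contrast runs from 0h, as that label has no 6h group, so its directions need not match the step's. It called 3873 genes (16.5%) and 3 of the 30 clock genes, and it was added after the data had been examined, because the planned one, rbohE leaves at 1D against 0h with 5748 genes called (24.5%), had 21 of the 30 clock genes called. The root mean square log2 difference of the 30 clock genes was 2.16 for wild type 12h against 6h, 4.68 for the 0h contrast, 0.716 for the gpat4 gpat8 12h contrast and 1.76 for the rbohE contrast.

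Of the 1510 genes higher at 12h than at 6h in wild type, 442 (29.3%) were also higher in the 0h contrast, which is 17.36% of the genes higher there, and 156 (10.3%) were lower in it. Of all genes tested, 10.8% were higher and 9.70% lower in the 0h contrast. Of the 998 genes lower at 12h, 378 (37.9%) were also lower in the 0h contrast, 16.6% of the genes lower there, and 209 (20.9%) were higher in it. The 2 contrasts share no library. Set against the gpat4 gpat8 12h contrast, 347 of the genes higher at 12h in wild type (23.0%) were higher and 202 (13.4%) lower, and of the genes lower at 12h, 213 (21.3%) were lower and 283 (28.4%) higher. Over all genes tested, 9.60% were higher and 6.90% lower in that contrast, and the 4 overlaps make up 15.4%, 12.5%, 13.2% and 12.6% of the genes called there in those directions. With the planned pair of contrasts, 491 of the 2508 called genes were called in the 0h contrast alone, 582 in the rbohE 1D contrast alone, 694 in both and 741 in neither. These classes made up 19.58%, 23.21%, 27.67% and 29.55% of the called genes, against 11.56%, 15.49%, 8.99% and 63.96% of all genes tested. Among the 741, with a mean of at least 50 counts in the higher group and groups that did not overlap, the largest changes were those of the acireductone dioxygenase ARD3, the aspartyl protease gene AT5G48430, the metal transport gene AT4G08570 and the natriuretic peptide gene PNP-A.

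**Figure D3:**
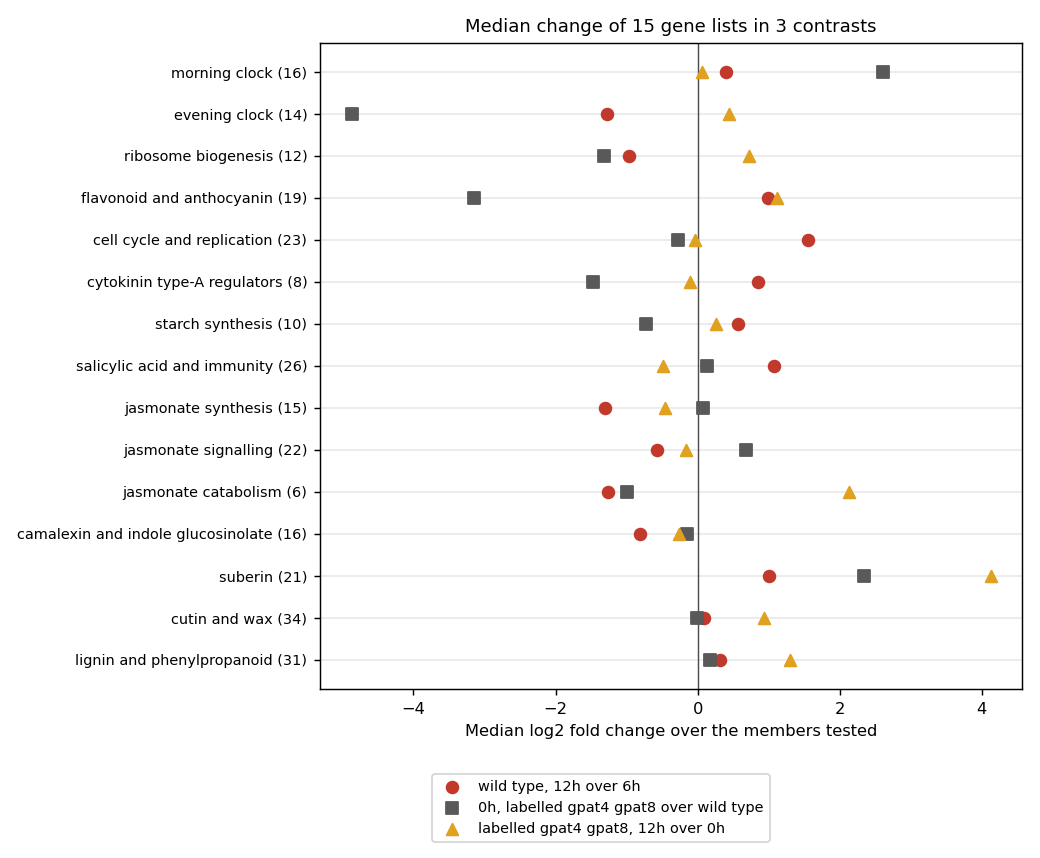
Median log2 fold change over the tested members of 15 gene lists (number tested in brackets) in wild type at 12h over 6h (red circles), in the 0h leaves labelled gpat4 gpat8 over 0h wild type (grey squares) and in leaves labelled gpat4 gpat8 at 12h over 0h (yellow triangles). The evening clock list lies at -1.28, -4.87 and 0.43, and the jasmonate synthesis list at -1.31, 0.08 and -0.46.

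Genes of jasmonate, the main wound hormone, fell at each level of the pathway examined. Of 15 synthesis genes, 7 were lower at 12h and none was higher, with a median log2 fold change of -1.31. AOS, the allene oxide synthase at the branch point of the pathway, had 462, 513 and 538 CPM at 12h, against 1714, 1711 and 1676 CPM at 6h (-1.75 ± 0.12, edgeR adjusted p 4.52e-17). AOC2, an allene oxide cyclase, had 417, 428 and 422 CPM at 12h and 1523, 1422 and 1501 CPM at 6h (-1.81 ± 0.14). Every 12h library of both genes lay below every 6h library. AOC1 (-1.80 ± 0.19), AOC3 (-2.04 ± 0.32), LOX3 (-1.59 ± 0.30), LOX4 (-1.66 ± 0.34) and OPR3 (-1.31 ± 0.16) fell as well, while LOX2, the most abundant lipoxygenase, had 5178, 4497 and 5026 CPM at 12h and 8282, 8385 and 9407 CPM at 6h, under the fold minimum (-0.83 ± 0.15). In the 0h contrast 4 of the 7 fallen genes were higher and none was lower, where 5 of the 15 tested were higher and 1 lower.

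The signalling genes followed. Of 22, 8 were lower at 12h and none was higher (median -0.58). JAZ8 had 4.86, 4.41 and 5.24 CPM at 12h and 25.3, 25.4 and 26.3 CPM at 6h (-2.41 ± 0.35, edgeR adjusted p 1.35e-07), and JAZ7, JAZ10, JAZ5, JAZ2 and JAZ1, repressors that jasmonate itself induces, fell by between 1.02 and 2.15 on the log2 scale. JAM1, a negative regulator, fell too (-1.58 ± 0.17). VSP2, a vegetative storage protein used as a jasmonate readout, had 27.0, 36.6 and 31.5 CPM at 12h and 72.6, 95.3 and 180.1 CPM at 6h, where the third 6h library stood apart (-1.87 ± 0.62). Without that library the fold change of VSP2 was -1.45 and it was not called (edgeR adjusted p 0.0849). The constitutive JAZ12 (-0.28 ± 0.08) and the receptor gene COI1 (0.14 ± 0.06) were not called. Of the 8 fallen genes, 7 were higher and none lower in the 0h contrast, where 9 of the 22 tested were higher and 1 lower.

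Of 6 genes that inactivate jasmonates, 5 were lower at 12h. CYP94B3, which hydroxylates jasmonoyl-isoleucine, had 179.5, 214 and 247 CPM at 12h and 835, 866 and 686 CPM at 6h (-1.90 ± 0.70, edgeR adjusted p 0.0271). It lost its call without the first 12h, the second 12h or the second 6h library (edgeR adjusted p 0.0814, 0.0643 and 0.05), at fold changes of -1.83, -1.94 and -1.88. ST2A, a sulfotransferase of hydroxyjasmonate, had 523, 566 and 583 CPM at 12h and 1474, 1195 and 1351 CPM at 6h (-1.27 ± 0.35). At 12h ST2A was still far above its 0h mean of 46.5 CPM in wild type. CYP94C1 (-1.85 ± 0.34), CYP94B1 (-1.27 ± 0.37) and ILL6 (-1.13 ± 0.16) fell with them. In the gpat4 gpat8 12h contrast 3 of these 5 were higher, ST2A by 6.45, and CYP94C1 was lower. Of all 6 tested, 3 were higher and 1 lower there.

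**Figure D4:**
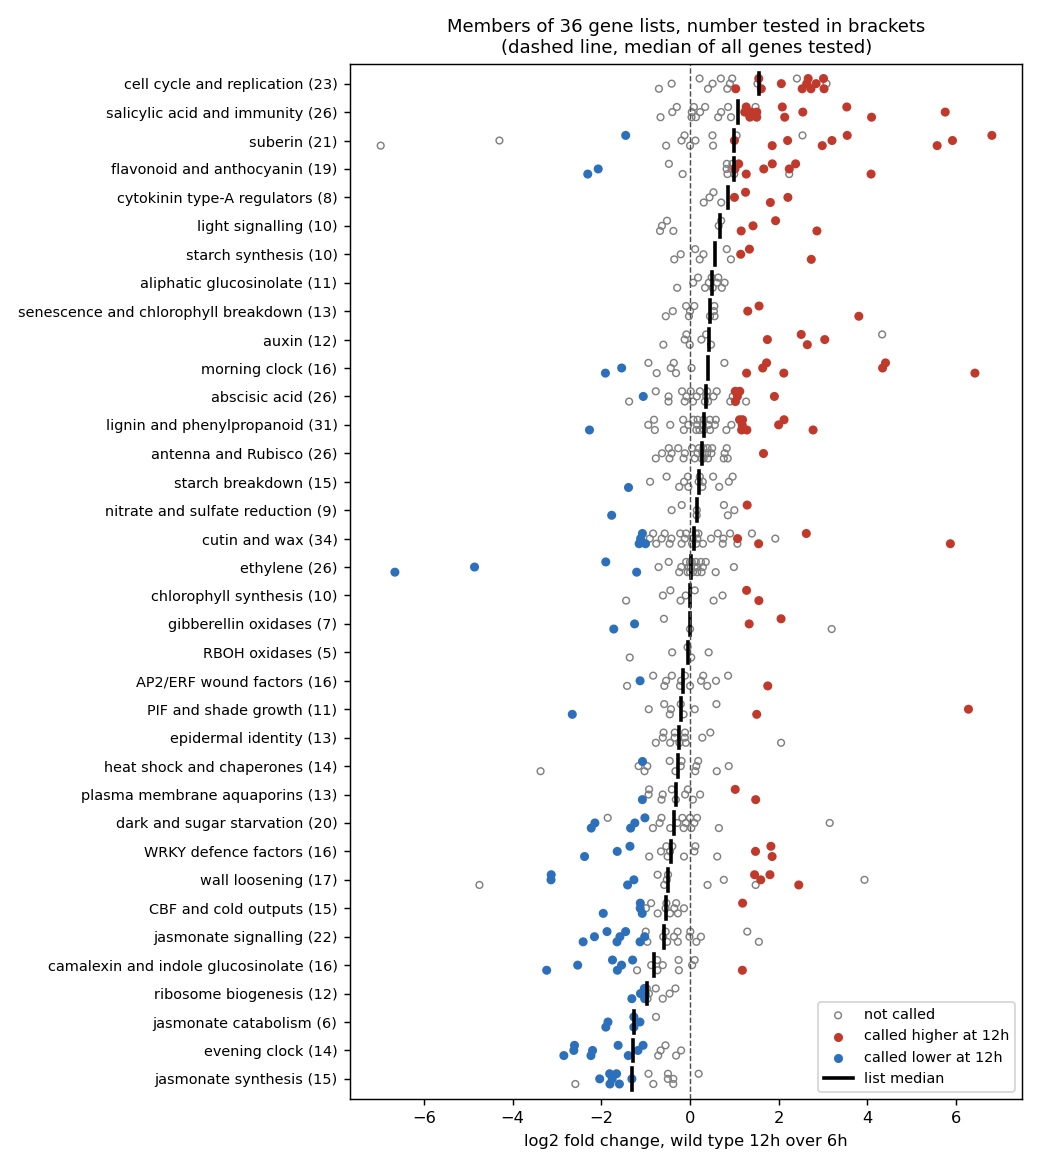
Log2 fold change of every tested member of the 36 gene lists in wild type at 12h over 6h, with red points for genes called higher, blue points for genes called lower, open points for genes not called and a black bar for the list median. Jasmonate synthesis, the evening clock and jasmonate catabolism have the lowest medians, and cell cycle, salicylic acid and suberin genes the highest.

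Salicylic acid and immunity genes rose, with 12 of 26 higher at 12h, none lower, and a median of 1.08. WRKY70, a transcription factor of the salicylate branch, had 278, 306 and 295 CPM at 12h and 105, 91.8 and 140.1 CPM at 6h (1.38 ± 0.34, edgeR adjusted p 0.000939). PAD4, a lipase-like immune regulator, had 82.8, 77.0 and 71.5 CPM at 12h and 27.6, 27.1 and 27.0 CPM at 6h (1.5 ± 0.21). PR1, the classical marker protein of the pathway, had 46.7, 25.7 and 17.7 CPM at 12h and 0.0761, 0.0854 and 1.51 CPM at 6h (5.75 ± 1.58, edgeR adjusted p 0.00268). The groups did not overlap in any of the 3, but PR1 varied widely among the 12h libraries, and the third 6h library stood above the other 6h libraries. DLO1, which hydroxylates salicylic acid, had 29.8, 22.2 and 16.2 CPM at 12h and 2.45, 2.16 and 11.5 CPM at 6h (2.08 ± 0.53), again with the third 6h library apart. That library was the highest of its group in 11 of the 12 genes, and without it all 12 were still higher, with log2 fold changes of 8.46 for PR1, 6.58 for WRKY38, 4.11 for NIMIN1 and 3.26 for DLO1. NIMIN1 (3.53 ± 0.79), WRKY38 (4.09 ± 0.91), WRKY62 (2.54 ± 0.78), DMR6 (2.13 ± 0.33), PR2 (1.5 ± 0.41), NIMIN2 (1.35 ± 0.30), EDS1 (1.27 ± 0.19) and WRKY54 (1.23 ± 0.31) rose as well. Of the 12, 3 were higher and 3 lower in the 0h contrast, where 7 of the 26 tested were higher and 4 lower. In the gpat4 gpat8 12h contrast 2 of the 12 were higher and 3 lower, where 4 of the 26 were higher and 8 lower. WRKY70 averaged 83.1 CPM in leaves labelled gpat4 gpat8 at 12h and 311 CPM at 0h.

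Genes of DNA replication and mitosis rose from low levels. Of 23 tested, 11 were higher at 12h and none was lower, with a median of 1.55. MCM2, a subunit of the replicative helicase, had 4.12, 3.67 and 2.6 CPM at 12h and 0.472, 0.413 and 0.561 CPM at 6h (2.84 ± 0.46, edgeR adjusted p 1.21e-06). MCM5 had 4.56, 3.97 and 2.99 CPM at 12h and 0.761, 0.940 and 1.06 CPM at 6h (2.06 ± 0.28). Subunits MCM3, MCM4, MCM6 and MCM7 rose by between 1.55 and 2.73 on the log2 scale, so that all 6 helicase subunits were higher without overlap of the groups. The sliding clamp PCNA1 (2.63 ± 0.57), the mitotic cyclins CYCB1;2 (3.01 ± 0.80) and CYCB1;4 (3.02 ± 0.73), the kinase CDKB2;1 (1.03 ± 0.33) and AUR1 (1.61 ± 0.36) were higher as well, while PCNA2 had 3.67, 3.89 and 2.6 CPM at 12h and 6.18, 5.67 and 4.69 CPM at 6h and was not called (-0.70 ± 0.19). The fold changes of both cyclins rest on few fragments, since at 6h CYCB1;2 had 0, 0 and 0.118 CPM and CYCB1;4 had 0.0609, 0.0854 and 0 CPM. In the gpat4 gpat8 12h contrast none of the 11 was called, and none of the 23 tested. In the 0h contrast 4 of the 11 were lower, all of them MCM subunits, where 2 of the 23 were higher and 4 lower. The wild type mean of MCM2 was 4.1 CPM at 0h, 0.166 CPM by 1h, 0.482 CPM by 6h, 3.46 CPM by 12h and 10.3 CPM by 1D. Its wild type 0h libraries, also a side of the 0h contrast, had 1.66, 2.13 and 8.51 CPM, with the third apart.

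Ribosome biogenesis genes fell, with 5 of 12 lower at 12h, none higher, and a median of -0.97. FIB2, a fibrillarin that methylates ribosomal RNA, had 42.6, 44.0 and 45.2 CPM at 12h and 119, 106 and 102 CPM at 6h (-1.31 ± 0.21, edgeR adjusted p 1.03e-06). The nucleolar proteins SWA1 (-1.12 ± 0.14), NOP56 (-1.03 ± 0.14), TOZ (-1.02 ± 0.12) and PUM24 (-1.01 ± 0.14) fell by similar amounts. All 12 had a negative fold change at an adjusted p under 0.05. The 5 were lower in the 0h contrast too, as were 8 of the 12. In the gpat4 gpat8 12h contrast 3 of the 5 were higher, as were 4 of the 12. The telo-box (AAACCCTA on either strand), a motif known from promoters of ribosomal genes, was found in 7 of the 12 windows, in 5.72% of all windows, in 9.23% of windows of genes called lower and in 2.58% of windows of genes called higher.

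Suberin is the polyester that seals wounded and root surfaces. Of 21 suberin genes tested, 9 were higher and 1 lower at 12h, with a median of 1.0. MYB41, a transcription factor that activates suberin synthesis, had 30.2, 26.9 and 29.6 CPM at 12h and 3.14, 3.09 and 3.22 CPM at 6h (3.2 ± 0.32, edgeR adjusted p 6.94e-11). ABCG6, a suberin exporter, had 30.9, 25.1 and 28.1 CPM at 12h and 1.68, 4.37 and 1.12 CPM at 6h (3.54 ± 0.37), and the second 6h library was the highest of its group. MYB107, another suberin regulator, had 2.19, 1.54 and 1.93 CPM at 12h and 0.0457, 0 and 0 CPM at 6h (6.80 ± 0.66), and 2 of its 6h libraries held no count. The reductases FAR4 (5.57 ± 0.50) and FAR5 (2.98 ± 0.40), the hydroxylase CYP86B1 (2.2 ± 0.31), the acyltransferases GPAT5 (1.85 ± 0.34) and GPAT7 (1.0 ± 0.34) and MYB93 rose with them. MYB93 was at 0 in all 6h libraries and at 0.101, 0.204 and 0.0561 CPM at 12h, so both groups were near the floor of 3 fragments and no fold is given. FAR1, another reductase, went the other way, with 100.5, 63.4 and 76.6 CPM at 12h and 212, 253 and 192 CPM at 6h (-1.45 ± 0.43). ASFT, the feruloyltransferase of suberin, had 255, 208 and 224 CPM at 12h and 171, 202 and 111 CPM at 6h, and was not called (0.51 ± 0.35, edgeR adjusted p 0.263). Of the 9 that rose, 6 were higher in the 0h contrast and 8 in the gpat4 gpat8 12h contrast, and none was lower in either, where 9 and 15 of the 21 tested were higher.

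Of 34 cutin and wax genes tested, 4 were higher and 4 lower (median 0.10). The rises were CER1, of alkane synthesis (1.55 ± 0.55), the wax ester synthase WSD1 (2.62 ± 0.90), CYP86A4 (1.07 ± 0.41) and CER4, which stood at 0 in all 6h libraries and at 0.219, 0.0873 and 0.0561 CPM at 12h. The falls were LTPG2 (-1.15 ± 0.15), CER3 (-1.11 ± 0.15), the cutin hydroxylase CYP86A2 (-1.07 ± 0.14) and GPAT8 (-1.0 ± 0.30). CYP86A2 had 155, 129 and 126 CPM at 12h, against 284, 289 and 290.1 CPM at 6h, with no overlap. The rises depended on single libraries: none was called without the first 12h or the first 6h library, 1 without the third 6h library, and 2 without the third 12h or the second 6h library. None of the 13 epidermal identity genes and none of the 5 NADPH oxidase genes tested was called. RBOHD, the most abundant of the oxidases, had 222, 209.5 and 205 CPM at 12h and 212, 205 and 207 CPM at 6h.

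Lignin and phenylpropanoid genes were mixed, with 8 of 31 higher, 1 lower and a median of 0.31. LAC5, a laccase, had 105, 88.3 and 97.1 CPM at 12h and 20.7, 33.5 and 12.6 CPM at 6h (2.12 ± 0.35, edgeR adjusted p 3.39e-06). MYB46, a switch of secondary wall synthesis, had 1.21, 0.830 and 1.24 CPM at 12h and 0.198, 0.128 and 0.148 CPM at 6h (2.77 ± 0.55). The laccases LAC4, LAC11 and LAC17, the ligase 4CL3, PAL2 and MYB58 rose by between 1.12 and 2.00 on the log2 scale, with overlapping libraries in MYB58. Without the first 12h library 5 lignin genes were called higher. MYB15, a defence-lignin regulator, fell to 10.5, 13.6 and 13.8 CPM at 12h, against 61.8, 59.5 and 60.9 CPM at 6h (-2.27 ± 0.36). All 5 xylem markers rose beside them: the summed level of XCP1, XCP2, IRX1, IRX3 and VND7 was between 29.3 and 34.4 CPM in the 12h libraries and between 8.49 and 14.3 CPM in the 6h libraries, with XCP1 (2.05 ± 0.39) the most changed and no marker at 0. More or fewer cells of a type and more or less RNA per cell cannot be told apart in these bulk libraries, and the part of the xylem markers in the lignin result was not tested.

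Flavonoids are light-screening pigments of the leaf. Of 19 genes tested, 8 were higher and 2 lower, with a median of 1.0. FLS1, the flavonol synthase, had 34.2, 19.4 and 23.5 CPM at 12h and 1.92, 1.71 and 0.930 CPM at 6h (4.08 ± 0.38, edgeR adjusted p 7.63e-13). CHS, the first committed enzyme, had 1162, 982 and 1316 CPM at 12h and 395, 349 and 349 CPM at 6h (1.66 ± 0.39). F3H (2.38 ± 0.35), CHI (1.27 ± 0.17), GSTF12, UF3GT and the flavonol regulators MYB12 (2.24 ± 0.72) and MYB111 (1.85 ± 0.38) rose as well. The anthocyanin regulators MYB113 (-2.31 ± 0.57) and MYB114 (-2.07 ± 0.27) fell, and PAP1 had 216, 198 and 244 CPM at 12h and 316, 307 and 292 CPM at 6h without a call (-0.48 ± 0.28). All 8 genes that rose were lower in the 0h contrast, as were 17 of the 19 tested. In the gpat4 gpat8 12h contrast 5 of the 8 were higher, as were 8 of the 19.

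Camalexin and indole glucosinolates are tryptophan-derived defence compounds. Of 16 camalexin and indole glucosinolate genes, 6 were lower and 1 higher (median -0.81). CYP81F2, which modifies indole glucosinolates, had 0.706, 0.873 and 0.374 CPM at 12h and 2.00, 2.72 and 1.95 CPM at 6h (-1.75 ± 0.68, edgeR adjusted p 0.0347). The methyltransferase gene IGMT1 had 4.1, 7.64 and 5.61 CPM at 12h and 33.4, 27.6 and 39.6 CPM at 6h (-2.53 ± 0.31), although IGMT1 has a near-identical copy that can share its reads. MYB122, IGMT2, CYP71A13 and MYB34 fell by between 1.29 and 3.23 on the log2 scale, and CYP71A12 rose (1.18 ± 0.32). Without the third 12h library 3 of the list were called lower, and CYP81F2 was not among the called genes then (edgeR adjusted p 0.119), nor without the first 12h or the second 6h library (edgeR adjusted p 0.0683 and 0.0871). No aliphatic glucosinolate gene of 11 was called. Of 26 ethylene genes, 4 were lower and none higher, and the defensin PDF1.2 had 0.151, 0.495 and 0 CPM at 12h and 63.4, 0.470 and 5.89 CPM at 6h, so its fall of 6.65 on the log2 scale rests mainly on the first 6h library (-3.83 without it, edgeR adjusted p 0.081). The 4 ethylene calls became 2 without the third 12h, the first 6h or the third 6h library. The WRKY defence factors divided evenly, with WRKY29 (-2.38 ± 0.28), WRKY40 (-1.64 ± 0.53) and WRKY48 (-1.35 ± 0.22) lower and WRKY50 (1.85 ± 0.25), WRKY51 (1.48 ± 0.46) and WRKY60 (1.82 ± 0.22) higher at 12h.

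Among light, sugar and starch genes, between 1 and 5 members of each list were called, where 10.7% of all genes tested were called. PIF4, a growth-promoting phytochrome partner, had 8.04, 8.75 and 8.42 CPM at 12h, against 52.7, 50.7 and 55.3 CPM at 6h (-2.65 ± 0.12, edgeR adjusted p 6.31e-25). ELIP1, an early light-induced protein of the chloroplast, had 308, 293 and 308 CPM at 12h and 41.8, 41.8 and 41.6 CPM at 6h (2.86 ± 0.35). GBSS1, the granule-bound starch synthase, had 791, 606 and 738 CPM at 12h and 81.2, 142 and 98.2 CPM at 6h (2.73 ± 0.24, edgeR adjusted p 7.35e-14). The groups did not overlap in these 3 genes. Of 10 starch synthesis genes 3 were higher, the others being APL3 (1.34 ± 0.13) and SBE2.2 (1.14 ± 0.10), and of 15 starch breakdown genes AMY3 alone was called, lower (-1.40 ± 0.10). Of 20 genes of the dark and sugar starvation response 5 were lower and none higher, among them SEN1 (-2.23 ± 0.48) and DRM2 (-2.14 ± 0.24). Of 10 light signalling genes 4 were higher, with BBX25 at 1.42 ± 0.14. Of 10 chlorophyll synthesis genes CHLH (1.55 ± 0.21) and CRD1 (1.27 ± 0.15) were higher, and of 26 antenna and Rubisco genes LHCB4.3 alone (1.64 ± 0.15). The zeaxanthin epoxidase gene ABA1, of abscisic acid synthesis, had 372, 393 and 386 CPM at 12h and 99.8, 108 and 99.9 CPM at 6h (1.90 ± 0.11), 1 of 5 higher among 26 abscisic acid genes, with CYP707A1, which degrades the hormone, lower (-1.05 ± 0.21). The 5 calls became 2 without the first or the third 12h library and 1 without the third 6h library.

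Of 12 auxin genes 4 were higher and none lower, with GH3.3, which conjugates auxin, at 5.95, 4.98 and 4.38 CPM at 12h and 0.365, 0.883 and 0.605 CPM at 6h (3.04 ± 0.65, edgeR adjusted p 0.000132). Of 8 type-A cytokinin response regulators 4 were higher and none lower, with ARR9 at 8.44, 7.80 and 11.2 CPM at 12h and 2.07, 1.88 and 1.99 CPM at 6h (2.21 ± 0.26). Neither group had overlapping libraries in these examples. EXPA1, an expansin, had 215, 174 and 212 CPM at 12h and 32.4, 37.4 and 40.1 CPM at 6h (2.45 ± 0.22). XTH22, a touch-induced wall hydrolase, had 13.9, 9.58 and 12.6 CPM at 12h and 113, 113 and 89.3 CPM at 6h (-3.13 ± 0.50). Of the 17 wall-loosening genes, the expansins EXPA1, EXPA4 and EXPA6 and XTH4 rose, and XTH16, XTH18, XTH22 and XTH23 fell. XTH18 has a near-identical copy that can share its reads. The cold-response gene COR15B fell (-1.96 ± 0.25), with 3 others of the 15 genes of that list, and GOLS2 rose (1.19 ± 0.27). Without the second 6h library 2 genes of that list were called lower.

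Among single genes, the largest rises outside these lists were led by 2 enzymes at 0 in all 6h libraries. ARD3 had 15.4, 3.04 and 3.44 CPM at 12h, at least 60.9-fold above the floor of 3 fragments in a 6h library, and the first 12h library was far above the others (at least 27-fold without it). The malic enzyme NADP-ME1 had 1.33, 1.54 and 1.5 CPM at 12h, at least 12.1-fold above that floor. AT3G59850, annotated as pectin lyase-like, had 3.23, 2.26 and 1.91 CPM at 12h and 0, 0.0427 and 0 CPM at 6h. GASA5, a homologue of GAST1, had 38.2, 35.6 and 35.2 CPM at 12h and 0.259, 0.441 and 0.930 CPM at 6h (6.06 ± 0.46, edgeR adjusted p 1.19e-14). The peroxidase gene AT4G36430 had 40.1, 32.5 and 31.8 CPM at 12h and 0.548, 0.456 and 0.960 CPM at 6h (5.73 ± 0.38). The peroxidase gene AT1G68850 (6.06 ± 0.65), the lipid-transfer gene EDA4 (5.79 ± 1.0) and the ATPase gene AT3G28510 (6.34 ± 1.2) completed the 12 largest, with LHY, MYB107, PR1 and FAR4 from above. At 6h EDA4 had 0.0457, 0 and 0 CPM and FAR4 had 0.0914, 0.0427 and 0.0443 CPM. These values lie under the floor of 3 fragments, so the size of both fold changes is uncertain. The peroxidases, GASA5, AT3G59850, NADP-ME1, EDA4, MYB107 and FAR4 were also higher in the gpat4 gpat8 12h contrast, whereas LHY, PR1, ARD3 and AT3G28510 were not called in it.

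The largest falls included several genes of transport, terpene and specialised metabolism. NRT2:1, a high-affinity nitrate transporter with a near-identical copy, had 0.589, 0.146 and 0.262 CPM at 12h and 7.96, 6.64 and 9.83 CPM at 6h (-4.62 ± 0.62, edgeR adjusted p 3.93e-08). TPS03, a terpene synthase, had 0.437, 0.204 and 0.486 CPM at 12h and 8.39, 11.8 and 16.4 CPM at 6h (-5.04 ± 0.66). The pectin methylesterase inhibitor gene AT5G62360 had 0.488, 0.509 and 0.281 CPM at 12h and 16.8, 14.1 and 19.2 CPM at 6h (-5.26 ± 0.31). The groups did not overlap in any of the 3. The bHLH gene AT1G12540 (-6.03 ± 0.79), AT5G48430 (-5.10 ± 1.25), PP2-A5 (-4.48 ± 0.51), the lipase gene AT1G54010 (-4.37 ± 0.59), the STAY-GREEN-like gene AT4G11911 (-4.31 ± 0.58), CYP81F4 (-4.18 ± 0.89), PGL5 (-3.99 ± 0.51), the acyltransferase gene AT1G32910 (-3.94 ± 0.58) and the bHLH gene AT1G62975 (-3.83 ± 0.38) were the others. At 12h AT1G12540 had 0, 0.102 and 0 CPM and AT5G48430 had 0, 0.131 and 0.0374 CPM. Both were near the floor there, so the size of their fold changes is uncertain. CYP81F4 is overlapped by a gene on the opposite strand, so its reads may be shared.

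Of the 8 most abundant called genes, 4 were higher at 12h and 4 were the fallen genes GRP7, AOS, AOC2 and ST2A described above. GLDP1, a subunit of glycine decarboxylase, had 3332, 3117 and 3267 CPM at 12h and 1424, 1468 and 1532 CPM at 6h (1.14 ± 0.18, edgeR adjusted p 5.25e-07). RCA, the activase of Rubisco, had 3010.0, 2887 and 2955 CPM at 12h and 1083, 1121 and 1140.0 CPM at 6h (1.41 ± 0.11). FBA2, a fructose-bisphosphate aldolase, had 1302, 1259 and 1327 CPM at 12h and 603, 621 and 691 CPM at 6h (1.02 ± 0.12), and ECS1 had 1910.0, 1787 and 1794 CPM at 12h and 493, 480.2 and 623 CPM at 6h (1.78 ± 0.19). In all 4 the 12h libraries were close together and above every 6h library. FBA2 lay at the fold minimum and fell under it in 5 of the 6 fits that left out a library, at 0.94 to 1.0. RCA and GLDP1 are each overlapped by a gene on the opposite strand, and whether counting used the strand is not given in the sources used here. Among the genes above, so are FKF1, LUX, LNK1, LNK2, LNK3, ELF3, RVE1, BOA, F3H, FAR4, COR15B, WRKY29, BBX25, CRD1, ARR9, NOP56, SWA1 and CYP81F4. APR2, given below, is overlapped in the same way. EDA4, FIB2 and LNK4 are overlapped by a gene on the same strand, so their reads may be shared. Overlaps are given only for genes named in detail.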

How the data were processed

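RNA sequencing counts per gene were deposited by the authors as 1 table of 75 libraries in 25 groups. Per the submitters' processing notes, Trimmomatic 0.39, HISAT2 2.2.1, StringTie 1.3.4 and edgeR 3.19 were used with build TAIR10. The low counts in the deposited table are spaced as if 1 fragment were worth 2.63 counts (the value 3 occurred 38639 times and the value 4 14802 times), so dividing by that spacing was tried as an alternative. Whether counting used the strand is not given in the sources used here.

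Libraries were scaled by TMM and tested with edgeR 4.0.16 in R 4.3.3 by its quasi-likelihood test with robust dispersions and 1 coefficient for each of the 25 groups, after filterByExpr (lowest count 10, lowest total 15). Genes were called at a Benjamini-Hochberg adjusted p under 0.05 and an absolute log2 fold change of at least 1. On simulated counts with 100 genes changed by 1.5 and 100 by 3 on the log2 scale in the comparison of 12h with 6h, all were recovered and 2 unchanged genes were called. The changed genes were drawn from those with at least 100 expected counts, at the same dispersion for every gene and without the count spacing. Recovery of genes with lower counts or a wider spread was therefore not tested.

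Members and gene lists were chosen with earlier results of these data known. Of 619 list entries in 36 lists, 595 were used. The other 24 loci were in the count table but were left out because RefSeq does not give them the symbol listed, among them 3 clock, 4 jasmonate catabolism, 6 AP2/ERF and 3 NADPH oxidase genes. The genes named in detail were all clock genes, the 12 largest rises and falls among called genes with a mean of at least 50 counts and groups that do not overlap, up to 3 called members per list, the 8 most abundant called genes and, under the same count and overlap limits, the 4 largest changes in each class of the split over contrasts. Other list members are named to account for them and were chosen after their values were seen. Near-identical copies were those with at least 90% identity over at least 50% of the length. Promoter windows of 300 bases came from RefSeq TAIR10.1. Alternatives were RLE size factors, DESeq2 1.42.0, no filter on low counts, a fit of only the groups compared, a replicate block, the adjusted p alone and leaving out each library.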

Additional observations from a re-analysis of the deposited data

How the results depend on the processing

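Genes called between 12h and 6h numbered 2507 with RLE size factors, 2629 with DESeq2, 2418 without the filter, 2534 after dividing by the count spacing, 2483 when only the groups compared were fitted, and between 2277 and 2437 when 1 of the 6 libraries was left out. Of the 2508 called genes, between 2102 and 2480 were called in the same direction under each of these settings and none in the other. With the replicate block, 2363 genes were called, 2173 of them shared. The labels do not say whether replicate numbers pair the samples. Deviations of same-numbered libraries correlated at -0.068, -0.072 and -0.05, and those of other-numbered libraries at between -0.003 and 0.076. These correlations cannot show how the samples were collected.

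With the adjusted p alone 9268 genes were called, 49.3% of them higher against 60.2% with the fold minimum. The fold minimum was dropped in every contrast here. Of 23475 genes tested, 12683 then passed in the 0h contrast (5779 higher) and 13869 in the rbohE contrast. In the gpat4 gpat8 12h contrast 10891 passed (6312 higher). With so many genes passing, the overlaps are a description only. Calls were then shared with the 0h contrast alone for 1588, with the rbohE contrast alone for 2047 and with both for 4622. Of the genes higher at 12h, 1840 were then higher and 938 lower in the 0h contrast, and 1362 higher and 1132 lower in the gpat4 gpat8 12h contrast. Of those lower at 12h, 816 were higher and 2616 lower in the 0h contrast, and 1897 higher and 971 lower in the gpat4 gpat8 12h contrast.

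Of 145 named genes, 29 lost their call or turned under at least 1 of 12 alternatives, and the cause was not tested. The 2 that turned were never called: CDF1, at -0.054, -0.027, -0.119 and -0.002, and RBOHD, at -0.049, -0.007, -0.002, -0.030 and -0.017, each with 1 library left out. Over these fits CDF1 lay between -0.119 and 0.104 and RBOHD between -0.049 and 0.006. Genes far under 1 CPM in both groups, such as CER4 and MYB93, rest on few fragments.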

Other observations

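A set of genes outside the lists, chosen after their values were seen, belongs to the ER body, a compartment of the endoplasmic reticulum that stores defence glucosidases. BGLU18, a glucosidase of wound-induced ER bodies, had 98.4, 72.1 and 62.5 CPM at 12h and 489.5, 576 and 953 CPM at 6h (-3.11 ± 0.45). NAI1, the regulator of ER body formation (-3.02 ± 0.48), NAI2 (-3.21 ± 0.42) and the glucosidase PYK10 (-2.92 ± 0.88) were lower at 12h as well. As they were picked for their change, no test is given.

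Beside GLDP1, RCA and FBA2, other genes of photorespiration and carbon fixation, also chosen after their values were seen, were higher at 12h. GLDP2 had 904, 862 and 910.5 CPM at 12h and 255, 258 and 284 CPM at 6h (1.75 ± 0.14), and GOX1, a glycolate oxidase (1.09 ± 0.09), FBA1 (1.40 ± 0.16), SBPASE (1.2 ± 0.15) and GAPB (1.04 ± 0.14) had positive fold changes of a similar size. SHM1, GDCH, GAPA and PRK were not called.

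Of the remaining lists, senescence had 3 of 13 genes higher, with SWEET15 at 0.723, 1.11 and 1.33 CPM at 12h and 0.0457, 0.128 and 0.0443 CPM at 6h. Nitrate and sulfate reduction had 1 of 9 higher, APR2 (1.29 ± 0.13), and 1 lower, NIA1 (-1.77 ± 0.36). Of 13 aquaporin genes 2 were higher and 1 lower, of 7 gibberellin oxidase genes 2 were higher and 2 lower, of 16 AP2/ERF wound factor genes 1 was higher and 1 lower, and of 14 heat shock genes 1 was lower. Of 11 genes of shade growth 2 were higher and 1 lower. The shade growth rises were IAA29, at 0 in all 6h libraries and at most 0.269 CPM at 12h, and PIL1. PIL1 had 1.13, 0.408 and 0.636 CPM at 12h and 0.426, 0.0712 and 0.266 CPM at 6h, with overlapping libraries. GA3OX1, a gibberellin oxidase gene that rose, had at most 0.243 CPM, near the floor. Over all genes tested, 6.43% were higher and 4.25% lower.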
